A study of Oryza sativa Japonica Group with 24 samples.

Results

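The hexokinase genes of rice, OsHXK1 to OsHXK10, were followed through anthers of plants grown under 2 day lengths. The members were chosen by locus: LOC_Os07g26540 (OsHXK1), LOC_Os05g45590 (OsHXK2), LOC_Os01g71320 (OsHXK3), LOC_Os07g09890 (OsHXK4), LOC_Os05g44760 (OsHXK5), LOC_Os01g53930 (OsHXK6), LOC_Os05g09500 (OsHXK7), LOC_Os01g09460 (OsHXK8), LOC_Os01g52450 (OsHXK9) and LOC_Os05g31110 (OsHXK10). All 10 have a row among the 55986 loci counted, and by their locus numbers 4 lie on chromosome 5, 4 on chromosome 1 and 2 on chromosome 7. The plants were wild type japonica rice of the variety 9522, grown in paddy fields. Short-day (SD) plants had 12 h of light, made by putting black cloth over them at the end of the day, and long-day (LD) plants had the natural day of about 14 h. The treatment ran from panicle initiation until sampling, so only the light at the end of the day differed by design. Whole anthers at mitosis I, staged by anther length, were sampled every 4 h over a day, first at 08:00 and last at 04:00, with 2 biological replicates for each of the 12 groups and 24 libraries in all. Library totals were between 18459126 and 27529649 counts in SD and between 18043740 and 23293969 counts in LD. The SD totals follow the read numbers that the study lists for the same time points, but the LD totals follow those that it lists for the time point before, so either that list or the LD columns may be shifted by 1 time point. The columns were used as labelled. OsCAB1R, a chlorophyll-binding protein gene that is high in daylight, had 120 to 537 CPM (counts scaled to library size) in the LD columns of 08:00, 12:00 and 16:00, and 2.35 to 50.5 CPM in those of 20:00, 00:00 and 04:00. Each comparison of SD with LD at a time point, the interaction and the light difference in LD depend on these labels. The average over time points and the tests of any change within SD or within LD do not.

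Hexokinases use ATP to phosphorylate glucose and other hexoses, the step that commits free sugar to glycolysis, to nucleotide sugars and to starch. The developing anther is a strong sink: sucrose arrives from the leaves, invertases cleave it to glucose and fructose, and the growing pollen must phosphorylate these hexoses before it can store starch. In plants some hexokinases also act as glucose sensors that set gene expression apart from their catalysis, and rice OsHXK5 and OsHXK6 are known as such sensors. OsHXK7 is a cytosolic hexokinase with a part in sugar signalling, OsHXK4 is a plastid form, and knockdown of OsHXK10 leaves anthers that do not open.

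The hexokinases did not move as a block. At 12:00, 3 genes were lower in SD anthers (OsHXK5, OsHXK10 and OsHXK2) and 2 were higher (OsHXK7 and OsHXK9). A gene was called when edgeR's quasi-likelihood test on the 4 libraries of a time point gave a Benjamini-Hochberg adjusted p below 0.05 and the difference was at least 2-fold. Over all genes tested at 12:00, 40% were called, against 5 of the 9 hexokinases tested. At 08:00 the call was OsHXK5 alone, lower in SD, 1 of 9 members against 17.7% of all genes. No member was called at 16:00, 20:00, 00:00 or 04:00, where 0%, 4.99%, 1.56% and 15.9% of all genes were called. At an unadjusted p below 0.05 those time points held 3, 4, 2 and 4 of 9 members in the same order, and DESeq2 called 1, 1, 2 and 0. Over all genes, 6631 of 23487 at 20:00, 4610 of 23375 at 00:00 and 10303 of 23332 at 04:00 had an unadjusted p below 0.05, and DESeq2 called 8.35%, 7.93% and 14.8%. At 16:00, where edgeR called no gene, 7275 of 23466 genes had an unadjusted p below 0.05, the smallest adjusted p was 0.0624, and DESeq2 called 1362. The median log2 fold change (SD over LD) of the 9 members at 12:00 was 0.57, against -0.0081 over all genes, with members on both sides of 0. At the other 5 time points the members' median lay between -0.20 and 0.092, and that of all genes between 0.0022 and 0.038. Leaving out 1 library gave 4 members at 08:00 (without SD 08:00 replicate 1), 4 at 12:00 (without SD 12:00 replicate 1), 3 or 1 at 20:00 (without SD 20:00 replicate 1 or LD 20:00 replicate 1), 2 at 00:00 (without SD 00:00 replicate 2) and 1 at 04:00 (without SD 04:00 replicate 2). In the same fits 23.5% of all genes were called at 08:00, 35% at 12:00, 12.9% or 6.32% at 20:00, 15.4% at 00:00 and 17.3% at 04:00. OsHXK1 was tested nowhere because its counts were too low. Levels are in CPM, read counts scaled to library size after TMM (trimmed mean of M values) normalisation.

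**Figure D1:**
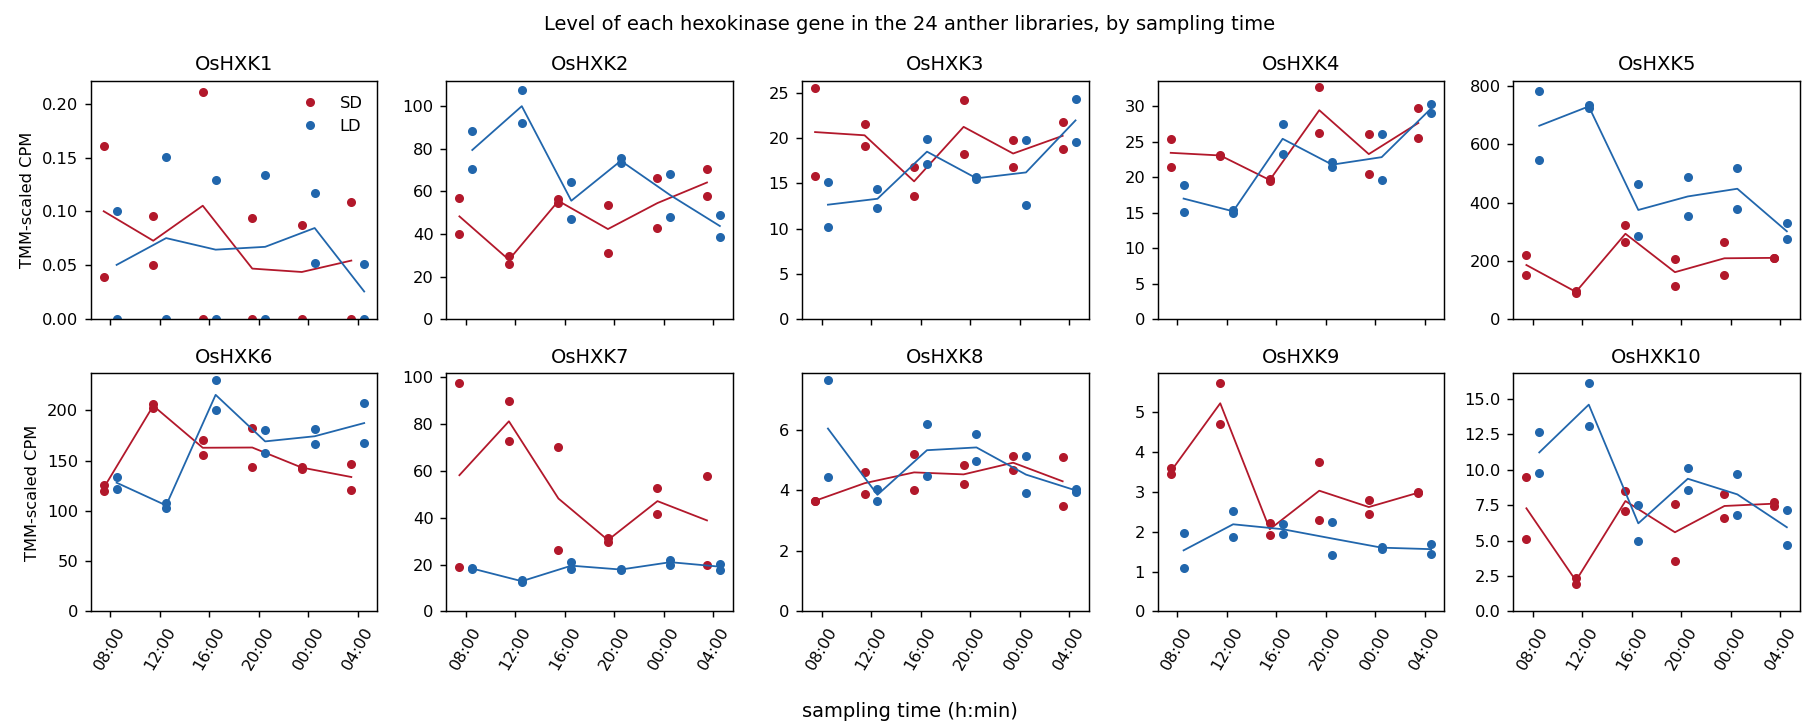
Levels of the 10 genes in TMM-scaled CPM (vertical axis, from 0, its own scale in each panel) by sampling time, SD in red and LD in blue; each point is a library and the line joins the means of 2 libraries. OsHXK5 in SD lies below LD at every time but 16:00, where 1 SD library lies above 1 LD library, and OsHXK7 in SD lies above LD at every time but 04:00.

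Most listed genes of the pollen, the tapetum (the nursing cell layer of the anther) and the anther wall had a larger log2 fold change at 12:00 than any hexokinase, WDA1 (2.13) being the exception. At that time all 11 pollen genes on a list from the study were called, 10 of them lower in SD. OsMATL, a phospholipase of the pollen, had 0.143 and 0 CPM in SD at 12:00, against 77.2 and 84.3 CPM in LD. Only POEI13 among the pollen genes was higher in SD at 12:00. POEI13 made up most of the summed level of that list in SD, which at 12:00 was 2375 to 2534 CPM in SD and 2997 to 3790 CPM in LD. All 4 tapetum and anther wall genes (OsABCG15, OsLAP6, HTH1 and WDA1) were called higher in SD at 12:00, and their summed level was 1823 to 2069 CPM in SD and 311 to 324 CPM in LD. Over the 6 time points this sum ran from 929 to 2280 CPM in SD and from 277 to 977 CPM in LD. The study chose most of these genes on the same libraries, so they are no independent check of the stage of the anthers. The libraries come from whole anthers, in which fewer cells of a type and less RNA per cell cannot be told apart. The part that these markers have in the hexokinase values was not tested.

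OsHXK5, a glucose sensor, had a lower mean in SD anthers than in LD anthers at each of the 6 time points, and was called at 2 of them. It had 220.2 and 151 CPM in SD anthers at 08:00, against 545 and 782 CPM in LD anthers. At 12:00 it had 97.6 and 88.9 CPM in SD, against 735 and 725 CPM in LD. The gap was widest between the columns labelled 12:00, where SD held its lowest and LD its highest mean. At 16:00 the groups overlapped, with 263 and 322 CPM in SD and 284 and 464 CPM in LD. At 20:00 it had 208 and 114 CPM in SD, against 353 and 489 CPM in LD. At 00:00 it had 152 and 265 CPM in SD, against 377 and 517 CPM in LD. In these night samples every SD library again lay below both LD libraries, although neither time point passed the test. At 04:00 the values were 209 and 211 CPM in SD and 273 and 329 CPM in LD.

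The log2 fold change of OsHXK5 was -1.88 ± 0.30 at 08:00 (SE implied by the test, edgeR adjusted p = 0.00602) and -3.00 ± 0.14 at 12:00 (adjusted p = 2.00e-05). At 04:00 it was -0.54 ± 0.15 with an adjusted p of 0.0423, under the 2-fold threshold. At 16:00, 20:00 and 00:00 it was -0.35 ± 0.27, -1.41 ± 0.34 and -1.09 ± 0.36, with adjusted p of 0.417, 0.0621 and 0.171. The 20:00 and 00:00 values passed both thresholds with DESeq2 (adjusted p = 0.000976 and 0.0362) and in 1 fit of all 24 libraries (adjusted p = 0.0224 and 0.0332). In the order of the 12 group means all 6 LD groups stood above all 6 SD groups, from 729.8 ± 7.0 CPM in LD at 12:00 to 93.3 ± 6.1 CPM in SD at 12:00 (standard deviation, n = 2 libraries each). Only 3 of the 11 steps in this order separated every library: LD 08:00 from LD 00:00, SD 16:00 from SD 04:00, and SD 20:00 from SD 12:00. Of the 12 SD libraries, 11 lay below the lowest LD library.

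**Figure D2:**
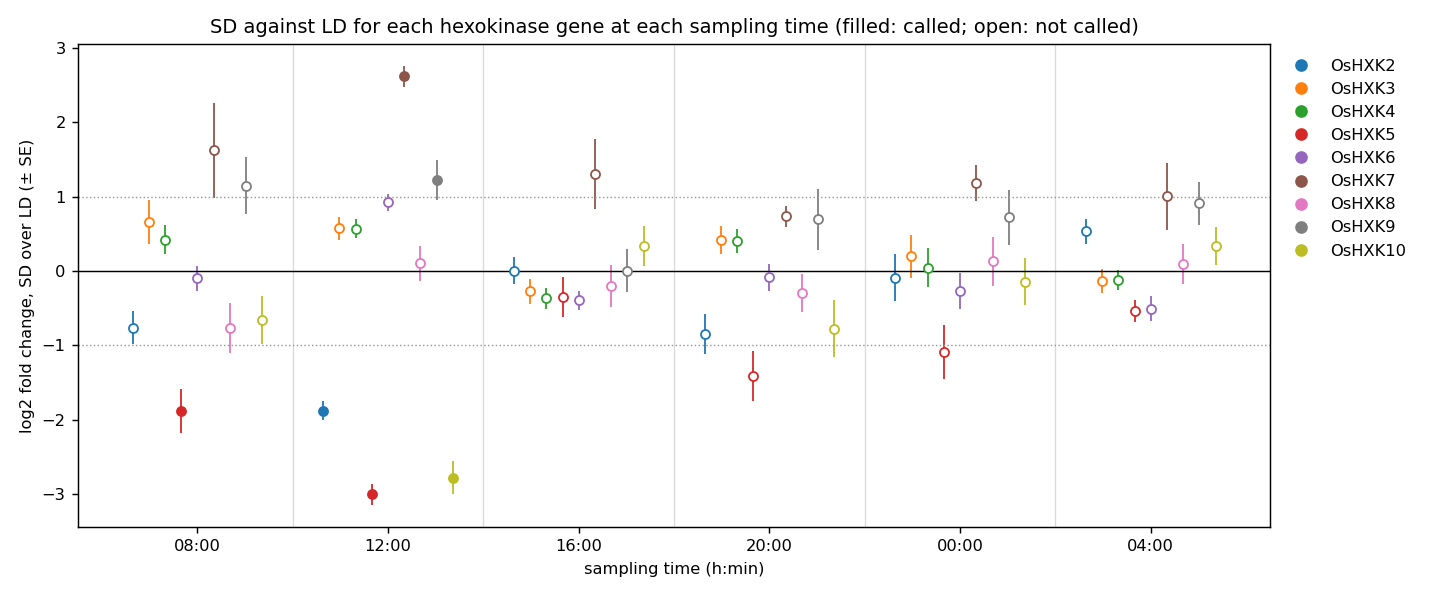
Log2 fold change of SD over LD (vertical axis, error bars are the SE implied by the test) for the 9 tested genes at each sampling time; filled points were called and open points were not, and dotted lines mark a 2-fold difference. The filled points are OsHXK5 at 08:00 and 5 genes at 12:00, between -3.00 for OsHXK5 and 2.61 for OsHXK7.

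OsHXK6, the other glucose sensor, did not follow OsHXK5. At 12:00 it had 206 and 203 CPM in SD anthers, against 103 and 108 CPM in LD anthers, so both SD libraries lay above both LD libraries. Its log2 fold change there was 0.92 ± 0.11 (edgeR adjusted p = 0.000679), just under 2-fold, and with library totals in place of TMM scaling it was 1.20 and called. At the other 5 time points the log2 fold change was below 0, from -0.50 ± 0.16 at 04:00 to -0.087 ± 0.18 at 20:00, with no adjusted p below 0.05. With library totals the 08:00 value, -0.10 as reported, turned to 0.022. SD held its highest mean at 12:00 (204 ± 2.6 CPM) and LD its lowest (105 ± 3.2 CPM), and LD reached its highest 4 h later at 16:00 (215 ± 21 CPM, standard deviation, n = 2 each).

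OsHXK7, the cytosolic hexokinase of sugar signalling, was the hexokinase with the largest increase in SD anthers at 12:00. It had 89.6 and 72.5 CPM in SD at 12:00, against 12.6 and 13.2 CPM in LD, a log2 fold change of 2.61 ± 0.14 (edgeR adjusted p = 3.14e-05). Its LD libraries were even across the day, between 12.6 and 22.1 CPM, while its SD libraries spread from 19.0 to 97.2 CPM. At 08:00 the 2 SD replicates had 19.0 and 97.2 CPM, a 5.13-fold gap, against 18.3 and 18.3 CPM in LD. They also stood apart at 16:00, with 70.1 and 26.2 CPM in SD and 17.98 and 21.1 CPM in LD, and at 04:00, with 57.7 and 19.9 CPM in SD and 20.3 and 17.9 CPM in LD. The higher SD library thus carried most of the difference at those 3 time points. The SD replicates were closer at 20:00 (29.7 and 31.2 CPM, against 17.8 and 17.99 CPM in LD) and at 00:00 (52.7 and 41.4 CPM, against 22.1 and 19.9 CPM in LD). The log2 fold change was above 0 at all 6 time points, from 0.73 ± 0.14 at 20:00 (adjusted p = 0.0434) upwards. It missed the threshold at 08:00 (1.62 ± 0.64, adjusted p = 0.109), 16:00 (1.31 ± 0.47, adjusted p = 0.144), 00:00 (1.18 ± 0.24, adjusted p = 0.0657) and 04:00 (1.003 ± 0.45, adjusted p = 0.138). Without SD 08:00 replicate 1 the 08:00 value became 2.37 and was called, and without SD 04:00 replicate 2 the 04:00 value became 1.58 and was called. Without the other SD replicate the difference was nearly gone: the log2 fold change was 0.011 at 08:00 (without SD 08:00 replicate 2, adjusted p = 0.985) and 0.059 at 04:00 (without SD 04:00 replicate 1, adjusted p = 0.831). At 16:00 it was 0.42 without SD 16:00 replicate 1 (adjusted p = 0.423) and 1.85 without SD 16:00 replicate 2 (adjusted p = 0.26).

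In the group order all 6 SD means of OsHXK7 stood above all 6 LD means, from 81.1 ± 12.1 CPM in SD at 12:00 to 12.9 ± 0.47 CPM in LD at 12:00 (standard deviation, n = 2 each). The 6 SD groups overlapped one another in this order, and SD 20:00, the lowest of them, was clear of LD 00:00. In SD the values of the listed tapetum and anther wall genes moved with OsHXK7 between replicates. The SD replicate with more OsHXK7 was also the one with more WDA1 at 6 of 6 time points, and with more OsABCG15, OsLAP6 and HTH1 at 5 of 6. In LD the same count was 5 of 6 for WDA1 and 1 to 3 of 6 for the other 3 genes. This was not particular to OsHXK7. OsHXK3 had 4 to 6 of 6 in SD and 3 to 5 of 6 in LD for these 4 genes. The remaining tested members lay in SD between 0 to 2 of 6 for OsHXK5 and 3 to 5 of 6 for OsHXK4. At 08:00 HTH1, a gene of the anther wall, had 5.68 CPM in the first SD replicate and 124 CPM in the second, against 2.37 and 0.275 CPM in LD. Its part in the OsHXK7 values was not tested.

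OsHXK10, which anther opening depends on, was low in reads and lower in SD at 12:00. It had 2.39 and 1.95 CPM in SD anthers at 12:00, from 50 and 39 counts, against 16.1 and 13.1 CPM in LD, from 294 and 261 counts. The log2 fold change was -2.78 ± 0.22 (edgeR adjusted p = 0.000122). At 08:00 it had 9.46 and 5.10 CPM in SD and 9.77 and 12.7 CPM in LD. At 20:00 it had 7.60 and 3.58 CPM in SD and 8.60 and 10.1 CPM in LD. Both times the SD libraries lay below LD without passing the test (log2 fold change -0.66 ± 0.32 and -0.78 ± 0.38, adjusted p = 0.18 and 0.242). The groups overlapped at 16:00 (8.48 and 7.10 CPM in SD, 4.95 and 7.49 CPM in LD) and at 00:00 (6.61 and 8.28 CPM in SD, 6.84 and 9.68 CPM in LD). At 04:00 the 2 SD libraries, 7.47 and 7.74 CPM, lay above the 2 LD libraries, 4.72 and 7.17 CPM, with a log2 fold change of 0.33 ± 0.25 (adjusted p = 0.346). In the order of means LD 12:00 was clear of LD 08:00 at the top, SD 20:00 was clear of SD 12:00 at the bottom, and the 10 groups between could not be separated step by step.

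OsHXK2 resembled OsHXK10 in its pattern over the groups. It had 29.9 and 25.9 CPM in SD anthers at 12:00, against 108 and 92.4 CPM in LD, a log2 fold change of -1.88 ± 0.13 (edgeR adjusted p = 7.54e-05). At 08:00 it had 56.8 and 39.8 CPM in SD and 70.5 and 88.5 CPM in LD, a difference with an adjusted p of 0.0486 that stayed under 2-fold (-0.76 ± 0.23). At 20:00 it had 53.5 and 31.1 CPM in SD and 73.2 and 75.6 CPM in LD (-0.84 ± 0.27, adjusted p = 0.11). The sign was the other way at 04:00, with 70.6 and 57.9 CPM in SD and 38.8 and 48.7 CPM in LD, where SD lay above LD without passing the test (0.53 ± 0.17, adjusted p = 0.0575). The libraries overlapped at 16:00 (56.6 and 54.5 CPM in SD, 47.0 and 64.3 CPM in LD) and at 00:00 (43.0 and 66.1 CPM in SD, 48.2 and 68.3 CPM in LD). Over the 12 group means of log2(CPM + 0.5) the correlation of OsHXK2 with OsHXK10 was 0.96, that of OsHXK5 with OsHXK2 0.88, and that of OsHXK5 with OsHXK7 -0.88. These coefficients are descriptions over means that share the SD 12:00 and LD 12:00 extremes.

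OsHXK9 was the second member higher in SD. It had 5.74 and 4.71 CPM in SD anthers at 12:00, against 2.52 and 1.86 CPM in LD, from 120 and 94 counts in SD and 46 and 37 counts in LD. The log2 fold change was 1.22 ± 0.27 (edgeR adjusted p = 0.00879), and without SD 12:00 replicate 1 it was 1.08 with an adjusted p of 0.0655. SD lay above LD at every time but 16:00. At 08:00 it had 3.59 and 3.44 CPM in SD and 1.96 and 1.10 CPM in LD (1.15 ± 0.38, adjusted p = 0.0685). Over the other times its SD libraries had 1.91 to 3.76 CPM and its LD libraries 1.42 to 2.24 CPM.

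The other 4 members were called at no time point. OsHXK4, the plastid form, had 22.9 and 23.1 CPM in SD anthers at 12:00, against 15.0 and 15.4 CPM in LD (0.57 ± 0.13, edgeR adjusted p = 0.00848). OsHXK3 had 19.1 and 21.5 CPM in SD at 12:00, against 12.3 and 14.4 CPM in LD (0.58 ± 0.15, adjusted p = 0.0176). Both were thus higher in SD at 12:00 by less than 2-fold. Over the day OsHXK3 ran from 13.7 to 25.6 CPM in SD and from 10.1 to 24.3 CPM in LD, and OsHXK4 ran from 19.4 to 32.6 CPM in SD and from 15.0 to 30.3 CPM in LD. OsHXK8 had 3.49 to 5.19 CPM in SD and 3.66 to 7.66 CPM in LD, with log2 fold changes from -0.77 ± 0.33 at 08:00 to 0.13 ± 0.32 at 00:00 and no adjusted p below 0.05. OsHXK1 had 0 to 4 counts in a library and was at 0 in 9 of 24. Its counts came to 18 over the 12 SD libraries and 15 over the 12 LD libraries, with at most 0.211 CPM in a library. A count of 0 allows up to 3 counts, so no fold is given for it.

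Summed over the 10 genes, hexokinase reads were fewer in SD anthers at each time point. The sum was 462 ± 22 CPM in SD at 12:00 and 997 ± 15 CPM in LD (standard deviation, n = 2 each). Group means ran from 460.5 to 609 CPM in SD and from 614 to 997 CPM in LD. Without OsHXK5 they ran from 288 to 368 CPM in SD and from 268 to 348 CPM in LD, so the photoperiods overlapped. OsHXK5 gave 20.2% to 48.1% of the hexokinase reads in SD and 49.0% to 73.2% in LD. These are shares of reads, not of transcripts, because gene lengths were not used, and the sums were not tested.

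**Figure D3:**
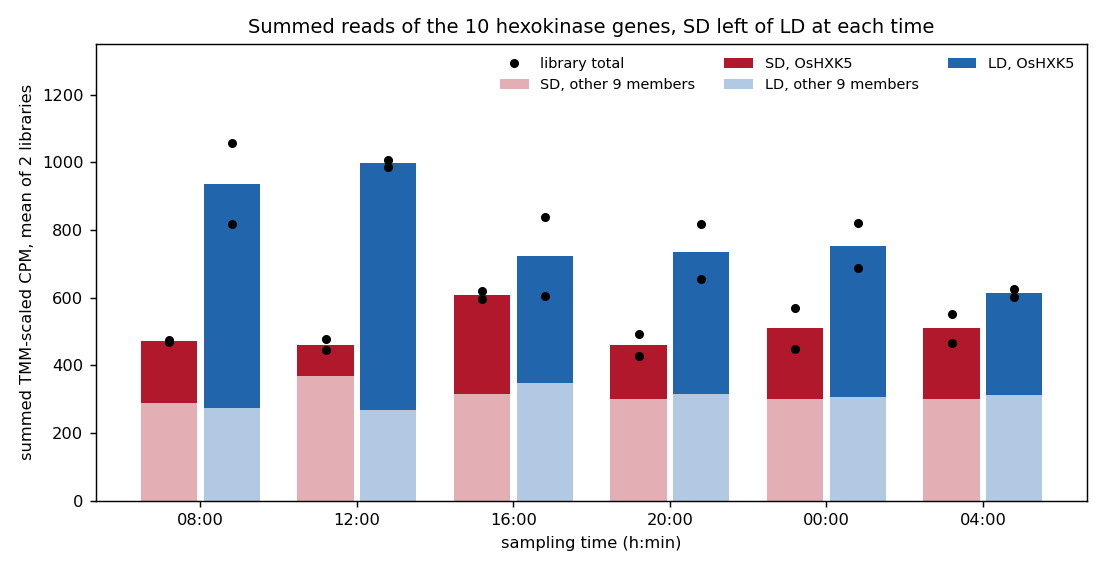
Summed TMM-scaled CPM of the 10 genes (vertical axis, from 0) at each sampling time, SD bars in red left of LD bars in blue; the dark part of each bar is OsHXK5, the pale part the other 9 genes, and black points are the 2 libraries. The pale parts run from 288 to 368 CPM in SD and from 268 to 348 CPM in LD. At 12:00 the pale part is taller in SD (368 CPM, against 268 CPM in LD). The dark parts are shorter in SD.

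Averaged over the 6 time points in a model of all 24 libraries, 5 of 9 members differed between SD and LD at an adjusted p below 0.05, against 58.4% of all genes. OsHXK5 (-1.39 ± 0.14, edgeR adjusted p = 6.20e-07), OsHXK10 (-0.62 ± 0.15, adjusted p = 0.00166) and OsHXK2 (-0.51 ± 0.11, adjusted p = 0.000981) were lower in SD. OsHXK7 (1.40 ± 0.23, adjusted p = 7.80e-05) and OsHXK9 (0.78 ± 0.12, adjusted p = 6.14e-05) were higher in SD. The SD libraries at 12:00 stand apart by their pollen genes, so the model was run again without the 4 libraries of 12:00, a choice made after seeing the data. OsHXK5 (-1.05 ± 0.16, adjusted p = 0.000135), OsHXK7 (1.17 ± 0.27, adjusted p = 0.00257) and OsHXK9 (0.70 ± 0.14, adjusted p = 0.00108) kept their calls. The calls of OsHXK2 (-0.23 ± 0.13, adjusted p = 0.163) and OsHXK10 (-0.18 ± 0.17, adjusted p = 0.396) were lost. OsHXK6, -0.082 ± 0.059 with an adjusted p of 0.245 over all time points, was -0.27 ± 0.07 and past the test without 12:00 (adjusted p = 0.00646).

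**Figure D4:**
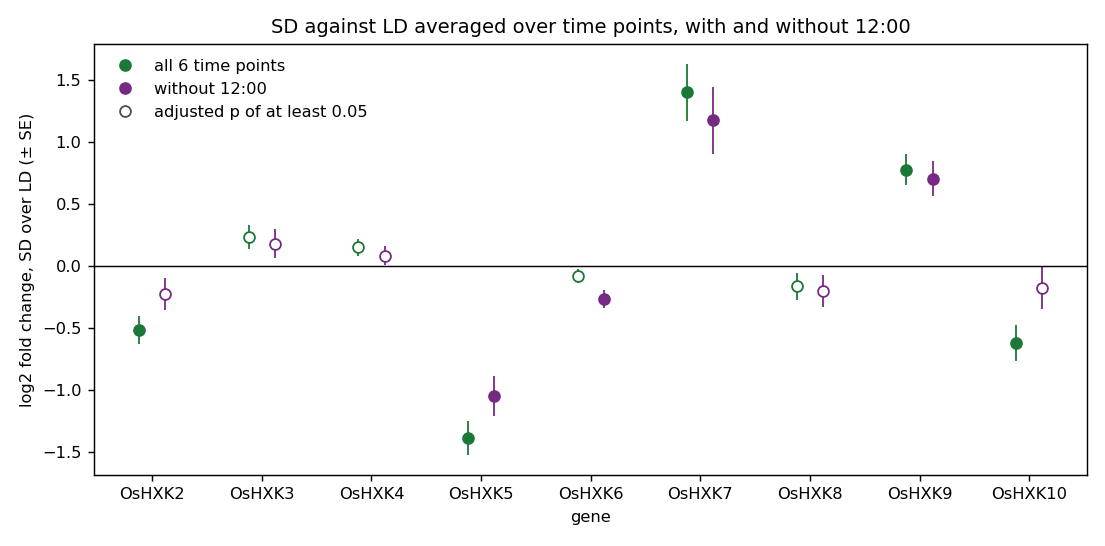
Log2 fold change of SD over LD averaged over time points (vertical axis, error bars are the SE implied by the test) for 9 genes, with all 6 time points in green and without 12:00 in purple; open points had an adjusted p of at least 0.05. OsHXK5 stays near -1 (-1.39 and -1.05) and OsHXK7 above 1 (1.40 and 1.17), while OsHXK2 and OsHXK10 move towards 0.

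The effect of photoperiod itself differed between time points for 5 of 9 members, against 48.5% of all genes, with the LD columns taken as labelled. These were OsHXK6 (edgeR adjusted p = 0.000888), OsHXK10 (adjusted p = 0.00164), OsHXK2 (adjusted p = 0.00189), OsHXK5 (adjusted p = 0.00269) and OsHXK4 (adjusted p = 0.0225). OsHXK7 (adjusted p = 0.365) and OsHXK9 (adjusted p = 0.179), both higher in SD, did not pass, which does not show that their difference was constant. Without the 4 libraries of 12:00 no member passed with edgeR, 3 had an unadjusted p below 0.05, and 2112 of 25071 genes passed.

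Within SD, 5 members changed over the day, against 34.9% of all genes: OsHXK6 (edgeR adjusted p = 0.013), OsHXK10 (adjusted p = 0.0132), OsHXK5 (adjusted p = 0.0213), OsHXK9 (adjusted p = 0.0303) and OsHXK2 (adjusted p = 0.0332). In each of them the extreme mean was at 12:00. OsHXK5, OsHXK10 and OsHXK2 were at their lowest there (93.3, 2.17 and 27.9 CPM), and OsHXK6 and OsHXK9 at their highest (204 and 5.22 CPM). Fewer members passed without either SD 12:00 library, either SD 16:00 library or SD 04:00 replicate 1, in fits that leave 1 library in a group. Within LD, 5 members changed as well, against 38.4% of all genes: OsHXK6 (adjusted p = 0.000902), OsHXK4 (adjusted p = 0.0042), OsHXK2 (adjusted p = 0.018), OsHXK5 (adjusted p = 0.0223) and OsHXK10 (adjusted p = 0.0303). Here OsHXK5, OsHXK2 and OsHXK10 had their highest mean at 12:00 (729.8, 100.1 and 14.6 CPM), and OsHXK6 and OsHXK4 their lowest (105 and 15.2 CPM). In LD fewer passed without LD 08:00 replicate 2, LD 16:00 replicate 1, or either library of LD 12:00 or LD 04:00. When the 4 libraries of 12:00 were left out together, no member passed in SD (1 at an unadjusted p below 0.05) or in LD (3 at an unadjusted p below 0.05). The share of all genes was not set beside these fits with libraries left out, so they do not mark the hexokinases out from other genes.

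Light against dark, the mean of 08:00, 12:00 and 16:00 over that of 20:00, 00:00 and 04:00, showed less. In SD only OsHXK4 passed, lower in the light by 0.28 ± 0.09 on the log2 scale (edgeR adjusted p = 0.0341), 1 of 9 members against 29.4% of all genes, and leaving out any of 12 single libraries ended that call. These were replicate 1 of SD 08:00, SD 00:00, SD 04:00 and LD 12:00, replicate 2 of SD 20:00 and LD 04:00, and either replicate of SD 12:00, SD 16:00 and LD 20:00. In LD 3 members passed against 23.5% of all genes. OsHXK4 (-0.36 ± 0.10, adjusted p = 0.0134) and OsHXK6 (-0.28 ± 0.08, adjusted p = 0.0246) were lower in the light, and OsHXK5 (0.59 ± 0.19, adjusted p = 0.0354) was higher. The count in LD fell most without LD 08:00 replicate 2, LD 00:00 replicate 1 or LD 04:00 replicate 1, and rose without some other libraries. OsHXK4 was the one member with a light difference past the test in both photoperiods. Without the 4 libraries of 12:00 no member passed in either, with 1 in SD and 0 in LD at an unadjusted p below 0.05. The share of all genes was not set beside these fits with libraries left out. OsCAB1R was higher in the light in both photoperiods, by 5.59 in SD and 5.30 in LD on the log2 scale.

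The genes on either side of hexokinase in hexose use were counted in the same way, on lists that the study drew largely from these libraries. Of 4 invertases, which supply hexoses from sucrose, 2 were called at 12:00, both lower in SD, where 40% of all genes were called. At other times OsINV2 was called lower at 08:00 and 20:00, and OsINV1 and OsINV3 at 04:00. OsINV4, an anther cell wall invertase, had 11.3 and 5.61 CPM in SD anthers at 12:00, against 1545 and 1194 CPM in LD (-7.37 ± 0.42, edgeR adjusted p = 3.73e-05). OsINV2 had 12.8 and 10.2 CPM in SD at 12:00, against 323 and 506 CPM in LD (-5.21 ± 0.28, adjusted p = 3.20e-05). These 2 differences were larger than that of any hexokinase. Of 11 genes that use or convert hexose phosphates, 9 were called at 12:00, 7 lower and 2 higher in SD, against the same 40%, with a median log2 fold change of -1.36. OsUgp2, a UDP-glucose pyrophosphorylase, had 15.6 and 12.3 CPM in SD at 12:00, against 717 and 916 CPM in LD (-5.90 ± 0.23, adjusted p = 1.04e-05). The fructokinase OsFKI, which phosphorylates fructose, was lower too (-1.80 ± 0.11, adjusted p = 4.47e-05). Both glucose-6-phosphate dehydrogenases, which open the pentose phosphate pathway, were higher in SD (LOC_Os03g29950 by 2.32 ± 0.31 and LOC_Os04g40874 by 1.48 ± 0.12 on the log2 scale, adjusted p = 0.00108 and 0.000161). OsUgp1 was higher by 0.96 ± 0.14, under 2-fold (adjusted p = 0.00129). At 08:00 the hexose phosphate list had 2 genes higher and 2 lower, and it had no call at 16:00, 20:00, 00:00 or 04:00.

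**Figure D5:**
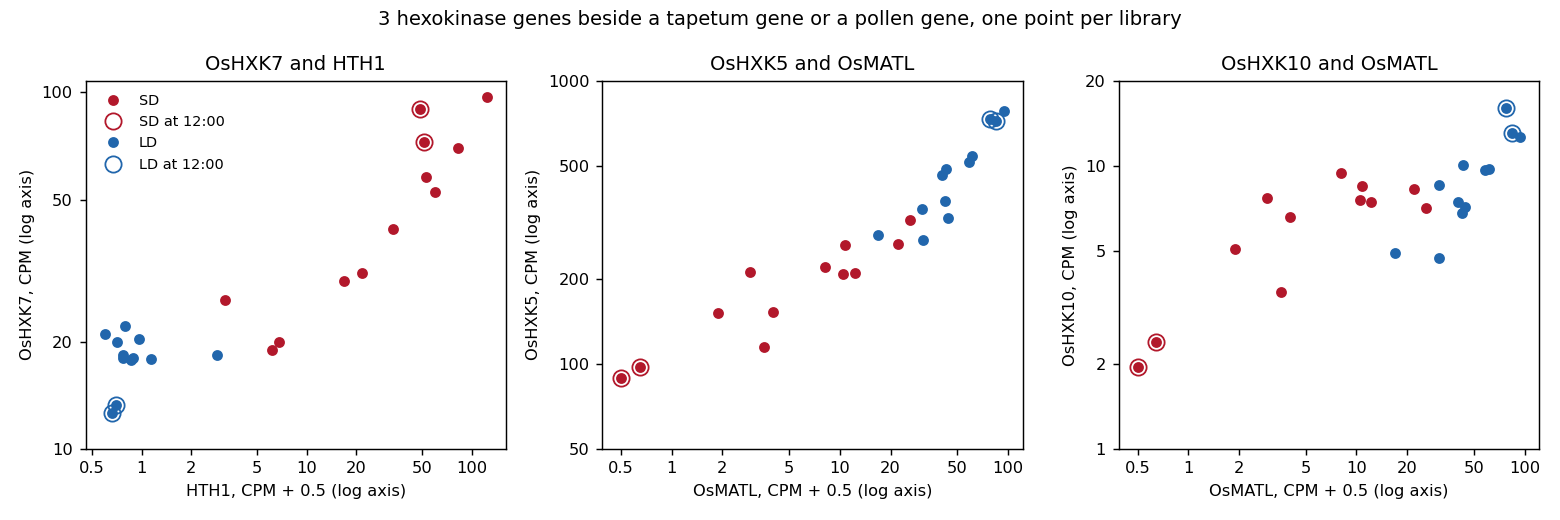
One point per library for OsHXK7 against HTH1, OsHXK5 against OsMATL and OsHXK10 against OsMATL (CPM on log axes, with 0.5 added to HTH1 and OsMATL); SD is red, LD blue, and rings mark 12:00. The pairs were chosen after the values were seen. The 2 SD libraries at 12:00 have the least OsMATL (0 and 0.143 CPM), OsHXK5 (88.9 and 97.6 CPM) and OsHXK10 (1.95 and 2.39 CPM).

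The plot of single libraries sets 3 members beside a marker gene. The replicate with more OsHXK5 was also the one with more RNA of 10 of the 11 pollen genes, OsMATL among them, at 4 or 5 of 6 time points in SD and at 5 of 6 in LD. POEI13 went the other way, with 1 of 6 in SD and 0 of 6 in LD. OsHXK2 had the same counts as OsHXK5 for each of the 11 genes. For OsHXK10 the counts were 3 or 4 of 6 in SD and 5 of 6 in LD, and for POEI13 2 of 6 in SD and 0 of 6 in LD. OsHXK8, called at no time point, had 5 or 6 of 6 in SD and 3 of 6 in LD for the same 10 genes. The agreement was thus not confined to called members. OsHXK3 and OsHXK9 had 1 or 2 of 6 in SD and 1 of 6 in LD for these 10 genes. The 10 genes gave nearly the same counts with each member, so they are not 10 separate observations. By likeness of pattern over the 12 group means, among 16485 other genes with a mean of at least 5 CPM, the genes nearest to OsHXK5 were LOC_Os01g10900, annotated as MRH1 (Pearson r = 0.995), LOC_Os09g24230, a haloacid dehalogenase-like hydrolase (r = 0.994), and LOC_Os10g36830, a transmembrane and coiled-coil domain protein (r = 0.992). The gene nearest to OsHXK7 was LOC_Os10g06720, an aldose 1-epimerase (r = 0.958), and the one nearest to OsHXK2 was LOC_Os03g58260, an indole-3-glycerol phosphate lyase (r = 0.987). Over the 24 single libraries these r were 0.989, 0.989, 0.985, 0.80 and 0.967. The genes named for OsHXK7 and OsHXK2 were not among the 3 nearest over the 24 libraries, nor by Spearman correlation over the group means. For OsHXK5, 2 of its 3 genes stayed over the 24 libraries and 1 by Spearman correlation. Each r is a description over groups that share the contrast at 12:00.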

How the data were processed

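The authors sequenced anther RNA on the Ion Proton platform, filtered reads with FastQC 0.11.1 (reads with 20% of bases under quality 13 removed), mapped them with MapSplice 2.1.8 to the MSU Nipponbare genome and counted reads per locus. The deposited values are these raw counts, one column per replicate, used as labelled although the LD totals match the study's list of reads only when moved by 1 time point. Which program counted them, whether by strand, and what became of reads with several mapping positions is not given in the sources used here, so reads may be split between similar hexokinase genes. The series' design text gives LD as 14 h of dark, and the study's description of about 14 h of light was followed.

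Counts were tested with edgeR 4.0.16 in R 4.3.3 (filterByExpr, TMM scaling, quasi-likelihood F-test, Benjamini-Hochberg adjustment over all genes tested), per time point on 4 libraries, and over 24 libraries in a model of 12 groups. Per time point genes were called at an adjusted p below 0.05 with a difference of 2-fold or more; in the 24-library model the adjusted p alone was used. SE is the absolute log2 fold change over the square root of F. CPM are TMM-scaled over all 24 libraries, which had totals of 18043740 to 27529649 counts. The precision depends on the counts of a gene and on the spread between replicates. DESeq2 1.42.0, which the authors used for differential expression, other scalings and filters, a replicate block and leaving out libraries were the alternatives. The scripts were tested on simulated data. Figures used matplotlib 3.10.9.

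All 10 members were named. Any gene of the hexose and marker lists could be named, and by pattern the 3 genes nearest to each member with a mean of at least 5 CPM, where annotated. Members and lists were chosen with earlier results of these data known. Names follow the study's locus numbers; among 10 hexokinase entries in RefSeq, 7 carry 2 HXK numbers, and 0 locus IDs matched, so coordinates, lengths and sequences were not used here and levels were not compared between genes. P-values measure the spread between 2 replicates described as biological.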

Additional observations from a re-analysis of the deposited data

Results flagged for a closer look

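The difference between SD and LD anthers depended on the time point for 5 of 9 members, in edgeR's interaction test on the 24 libraries. Of all genes, 48.5% passed the same test, so the members' share was near that of all genes. OsHXK2 (adjusted p = 0.00189) had a log2 fold change of -1.88 at 12:00 and of 0.53 at 04:00. OsHXK4 (adjusted p = 0.0225) had 0.57 at 12:00 and -0.37 at 16:00, and OsHXK6 (adjusted p = 0.000888) 0.92 at 12:00 and -0.40 at 16:00. OsHXK5 (adjusted p = 0.00269) had -3.00 at 12:00 and -0.35 at 16:00. OsHXK10 (adjusted p = 0.00164) had -2.78 at 12:00 and 0.33 at 16:00. None of the 5 passed without the 4 libraries of 12:00, where fewer of all genes passed too.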

How the results depend on the processing

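The 12:00 calls of OsHXK2, OsHXK5, OsHXK7 and OsHXK10 and the 08:00 call of OsHXK5 held in each alternative run, those without 1 library included. Without a fold threshold 2 members passed at 08:00, 8 at 12:00, 1 at 20:00 and 1 at 04:00, where 25%, 62.5%, 5.94% and 30.2% of all genes passed. With a filter of at least 1 count there were 3, 1, 1 and 1 at 08:00, 20:00, 00:00 and 04:00, against 14.9%, 5.09%, 3.97% and 12.5% of all genes. This filter gave 3 members between light and dark in SD (OsHXK2, OsHXK7 and OsHXK10), against 19% of all genes, while OsHXK4 lost that call (adjusted p = 0.103), and OsHXK6 lost its light call in LD (adjusted p = 0.0616). With 1 fit of the 24 libraries there were 3, 1 and 1 at 08:00, 20:00 and 00:00, against 18.6%, 6.97% and 10.2% of all genes. DESeq2 gave 1, 1 and 2 at 16:00, 20:00 and 00:00, against 5.8%, 8.35% and 7.93% of all genes. Library totals in place of TMM gave 1 at 00:00 and 1 at 04:00, against 2.99% and 16.6% of all genes. They ended the light call of OsHXK5 in LD (edgeR adjusted p = 0.0556) and the change of OsHXK10 over the day in LD (edgeR adjusted p = 0.0612). They also moved the median log2 fold change of all genes by 0.13 at 08:00, 0.27 at 12:00, 0.17 at 00:00 and 0.18 at 04:00. They turned OsHXK6 at 08:00 to 0.022 and on average to 0.045, OsHXK2 at 00:00 to 0.043, and OsHXK3 and OsHXK4 at 04:00 to 0.039 and 0.050. At 16:00 OsHXK2 and OsHXK9, near 0 as reported, were -0.0032 and -0.0044 with DESeq2, -0.0033 and -0.0045 with RLE size factors, -0.033 and -0.040 with library totals, and -0.0016 and -0.0042 with 1 fit. Without the 4 libraries of 12:00, an alternative chosen after seeing the data, 0 members passed for the interaction. For the change over the day 0 passed within SD and 0 within LD, and for light against dark 0 within SD and 0 within LD. The share of all genes in these fits is not given in this section. Without 12:00 the light difference in SD turned to 0.28 for OsHXK5, -0.045 for OsHXK6, -0.093 for OsHXK9 and 0.15 for OsHXK10. None of the values that reversed was called. The cause of these changes was not tested.

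Leaving out 1 library gave 1 to 4 members at 08:00, 4 to 5 at 12:00, 0 at 16:00, 0 to 3 at 20:00, 0 to 2 at 00:00 and 0 to 1 at 04:00, where a lone sample is assumed to vary like the others. It gave 4 to 6 for the interaction, 0 to 6 over the day within SD, 2 to 5 within LD, 0 to 2 for light in SD, 1 to 4 for light in LD and 5 to 7 on average. The log2 fold change changed sign within these ranges: OsHXK8 at 12:00 from -0.024 to 0.23; at 16:00 OsHXK2 from -0.21 to 0.25, OsHXK5 from -0.66 to 0.049, OsHXK8 from -0.42 to 0.048 and OsHXK9 from -0.11 to 0.11; OsHXK6 at 20:00 from -0.25 to 0.053. At 00:00 the ranges were -0.47 to 0.21 for OsHXK2, -0.078 to 0.53 for OsHXK3, -0.16 to 0.24 for OsHXK4, -0.073 to 0.36 for OsHXK8 and -0.39 to 0.16 for OsHXK10. At 04:00 they were -0.27 to 0.015 for OsHXK3 and -0.20 to 0.34 for OsHXK8. Light against dark ran from -0.29 to 0.00078 for OsHXK5 in SD and from -0.037 to 0.25 for OsHXK8 in LD. The share of all genes that passed also moved in these fits and is not set beside the member counts here. The ranges of member counts therefore do not mark the hexokinases out from other genes.

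The correlation of the replicate deviations of SD with those of LD ran from -0.41 to 0.43 over the time points. With 2 replicates in a group this does not settle whether the replicate numbers pair SD and LD samples. With the replicate number as a block the members called were 1, 5, 0, 0, 2 and 0 from 08:00 to 04:00, the 2 at 00:00 being OsHXK5 and OsHXK7. Of all genes, 14.2%, 40%, 8.86%, 3.36%, 12.9% and 13.3% were called in the same order. Without the block 0% were called at 16:00 and 1.56% at 00:00. The other member counts stayed as they were. Levels per gene length and promoter motifs were not run, since no lengths or sequences were used here.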
